A study of Saccharomyces cerevisiae with 8 samples.

Results

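10 genes of the glycolytic pathway of *Saccharomyces cerevisiae* were followed in a comparison of wild-type cells (WT) with cells lacking *RRP6* (*rrp6Δ*). They were taken by name from the open reading frame transcripts (ORF-Ts), which are mRNA annotations that include the untranslated regions, and they are *FBA1* (YKL060C), *TPI1* (YDR050C), *TDH1* (YJL052W), *TDH2* (YJR009C), *TDH3* (YGR192C), *PGK1* (YCR012W), *ENO1* (YGR254W), *ENO2* (YHR174W), *CDC19* (YAL038W) and *PDC1* (YLR044C). All 10 were found among 5753 ORF-Ts and 10054 annotated transcripts of every class, and none was lost to a filter on low counts, since none was applied. RNA-Seq of rRNA-depleted total RNA was done on 4 replicates of each strain. Both strains are isogenic to BY4741, a haploid laboratory strain of mating type a, and were grown in YPD, a rich glucose medium, to an OD600 of 0.8. The deletion strain came from the yeast knockout collection.

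Glycolysis splits glucose into pyruvate and yields ATP and NADH, and in glucose medium baker's yeast sends most of the pyruvate on to ethanol. Its enzymes are among the most abundant proteins of the cell, and their promoters share activators such as Rap1 and Gcr1. Rrp6 is the nuclear 3'-5' exonuclease of the RNA exosome, which degrades cryptic unstable transcripts (CUTs) and trims small nucleolar RNAs. Several glycolytic steps have isoenzymes encoded by separate genes, of which the glyceraldehyde-3-phosphate dehydrogenases (*TDH1* to *TDH3*) and the enolases (*ENO1*, *ENO2*) are close copies.

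The libraries held from 6904004 to 12666126 counts, of which ORF-Ts took from 46.2% to 62.7%. *RRP6* fell from between 94.2 and 151 normalized counts in WT to between 1.53 and 3.66 in *rrp6Δ* (log2 fold change -5.37). A normalized count is the CPM after TMM scaling of the library. The 6 markers of *MATa* cells summed to between 581 and 843 in WT and between 573 and 917 in *rrp6Δ*, whereas *STE3* and *SAG1*, which mark the other haploid mating type, summed to between 5.50 and 10.1. *URA3*, which BY4741 lacks, was listed with between 4.21 and 11.6 normalized counts in the 8 libraries. The median ORF-T had a log2 fold change of -0.32, and each change given here stands beside that shift.

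In a fit that took no account of the replicate numbers, none of the 10 glycolytic transcripts passed the thresholds for a change between the strains. These asked for at least 1.5-fold, an unadjusted p below 0.05 and an adjusted p (FDR) of at most 0.1. Of all ORF-Ts, 2.09% were up-regulated and 14.3% down-regulated by the same rule. Without replicate numbers in the model, no glycolytic transcript had an unadjusted p under 0.05 in edgeR's quasi-likelihood test, edgeR's exact test or DESeq2. The smallest adjusted p of that quasi-likelihood test was 0.196 (*CDC19*). In all 10 the WT and *rrp6Δ* libraries overlapped, while 1.63% of ORF-Ts lay higher in every *rrp6Δ* library than in any WT library and 13.8% lay lower. The median log2 fold change of the 10 was -0.38, beside -0.32 for all ORF-Ts, with 6 members below that ORF-T median and 4 above it. With 1 library left out, the median of the 10 lay between -0.59 (without WT replicate 2) and -0.15 (without WT replicate 4). It was above the ORF-T median without WT replicate 3 (-0.17 beside -0.33), WT replicate 4 (-0.15 beside -0.20), *rrp6Δ* replicate 1 (-0.25 beside -0.27) or *rrp6Δ* replicate 2 (-0.25 beside -0.29). With all libraries and without replicate numbers in the model, the 95% intervals of the log2 fold changes all held 0. They reached from -1.46 (*TDH3*) to 1.53 (*TDH1*), and each reached past 1.5-fold in at least one direction.

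The replicate numbers pair the libraries, so the comparison was also made within numbers. With the replicate number as a block, *CDC19* was down-regulated (log2 fold change -0.59 ± 0.22 SE, adjusted p = 0.037) and the other 9 did not pass, beside 19.4% of ORF-Ts down-regulated and 2.62% up-regulated. The unadjusted p of *CDC19*, *TDH1* and *TDH3* was under 0.05 in that quasi-likelihood fit. The SE and adjusted p given for each gene below come from the fit without the block unless stated. With the block and with scaling factors taken from ORF-Ts alone, which moved the ORF-T median by 0.31 to -0.01, *CDC19* was not past the thresholds and *TDH1* was up-regulated (0.74 ± 0.19, adjusted p = 0.0066), beside 5.32% of ORF-Ts up-regulated and 4.85% down-regulated.

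**Figure D1:**
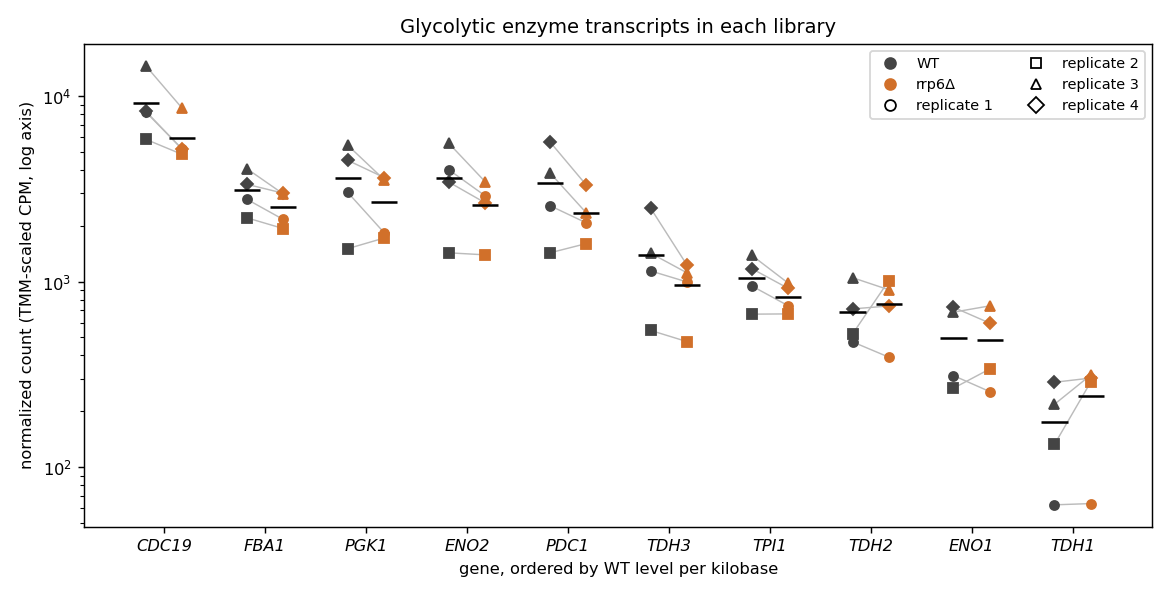
Normalized counts of the 10 glycolytic transcripts in each library on a log axis, with WT in grey, rrp6Δ in orange, 1 symbol shape per replicate number, grey lines joining the libraries of the same number and black bars at the mean of 4. The strains overlap for every gene, and the joined libraries slope downwards in all 4 numbers for TDH3, ENO2, CDC19 and FBA1 and upwards in all 4 for TDH1.

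Per kilobase of annotation, the levels of the 10 transcripts in WT spanned from 143 (*TDH1*) to 5443 (*CDC19*). *CDC19* was the 6th most abundant of the 5753 ORF-Ts per kilobase in WT and the 7th in *rrp6Δ*. It was the only one whose WT range did not overlap that of the next gene in the order. It lay above *FBA1* (2617 per kilobase) in 8 of 8 libraries. *FBA1*, *PGK1* (2497) and *ENO2* (2469) were not separated by their spread, with *FBA1* above *PGK1* in 2 of 4 WT libraries and *PGK1* above *ENO2* in 2 of 4. *PDC1* (1885) came next and was below *ENO2* in 3 of 4 WT libraries. *TDH3* (1224) and *TPI1* (1209) were level, with *TDH3* the higher in 1 of 4 WT libraries. *TDH2* (582), *ENO1* (332) and *TDH1* (143) followed in the same order in 4 of 4 WT libraries, although their ranges overlapped.

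The 10 transcripts together held 3.92%, 2.41%, 5.74% and 5.36% of all ORF-T counts in WT replicates 1 to 4. In *rrp6Δ* they held 3.90%, 3.17%, 5.53% and 4.36%. Replicate 2 had the lowest share and replicate 3 the highest in both strains. For 10 of the 10 genes the mean log2 level of the 4 replicate numbers spread over a wider range than the difference between the strains. Such a range takes the extremes of means of fewer libraries, so spread alone tends to make it the wider, and the count is no test. For *ENO2* that range was 1.64 beside a strain difference of -0.39, and for *CDC19* it was 1.07 beside -0.59. The highest WT library exceeded the lowest by between 1.84-fold (*FBA1*) and 4.58-fold (*TDH1*).

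The enzymes that split the hexose and interconvert its products come first. *FBA1* (chrXI:326327-327511, minus strand of sacCer3) encodes fructose-bisphosphate aldolase, which cleaves fructose-1,6-bisphosphate into a pair of triose phosphates. Its normalized counts in replicates 1 to 4 were 2778, 2206, 4062 and 3346 in WT and 2163, 1931, 2969 and 2995 in *rrp6Δ*. It was lower in *rrp6Δ* in 4 of 4 numbers, by a log2 fold change of -0.30 ± 0.28 (SE, adjusted p = 0.430), which is next to the ORF-T median. *TPI1* (chrIV:555638-556502, minus strand) encodes triose phosphate isomerase, which turns one of these trioses into the other. It was counted at 948, 667, 1388 and 1176 in WT and at 742, 669, 983 and 921 in *rrp6Δ*. Replicate 2 was level between the strains and the other 3 numbers were lower in *rrp6Δ* (-0.33 ± 0.27, adjusted p = 0.349). With library totals alone as the scale, both log2 fold changes were slightly above 0.

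The glyceraldehyde-3-phosphate dehydrogenases carry out the oxidative step that forms NADH. Their coding sequences are close: *TDH2* and *TDH3* were identical at 95.8% of 999 positions, *TDH1* and *TDH2* at 90.2%, and *TDH1* and *TDH3* at 88.9%. Each pair shared a run of identical bases longer than a 75-base read. The longest was 173 bases for *TDH2* and *TDH3*, 129 for *TDH1* and *TDH2*, and 92 for *TDH1* and *TDH3*. Of all 75-base windows, 9.84% in *TDH1*, 18.9% in *TDH2* and 12.6% in *TDH3* occurred elsewhere in the genome, so some reads of this family could have come from more than one gene, and how the authors' mapping placed them is not given in the sources used here. A window of 30 bases near the start of the coding sequence shows how the copies can be told apart. It covers coding positions 49 to 78, taken from RefSeq's R64 sequence, and capitals mark the 12 positions at which the copies differ. It lies in the only coding exon of each gene, at chrX:338319-338348 on the plus strand for *TDH1*, chrX:454604-454633 on the minus strand for *TDH2* and chrVII:883733-883762 on the minus strand for *TDH3*.
TDH1: TtgagaTtGgctttgCAAagaAAAGacAtT
TDH2: AtgagaAtTgctttgCAAagaAAGAacGtC
TDH3: AtgagaAtTgctttgTCTagaCCAAacGtC

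*TDH3* (chrVII:882706-883849, minus strand) was the most abundant of the family, at 1141, 545, 1422 and 2486 normalized counts in WT and 995, 474, 1114 and 1228 in *rrp6Δ*. Replicate 4 of WT stood highest, and *rrp6Δ* was the lower strain in 4 of 4 numbers (log2 fold change -0.55 ± 0.42, adjusted p = 0.326). Without WT replicate 4 the log2 fold change of *TDH3* was -0.06. *TDH2* (chrX:453545-454729, minus strand) had 473, 522, 1050 and 712 in WT and 391, 1012, 903 and 739 in *rrp6Δ*. It was higher in *rrp6Δ* in 2 numbers and lower in 2 (0.14 ± 0.33, adjusted p = 0.752), and replicate 2 alone rose by 0.96 on the log2 scale.

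*TDH1* (chrX:338197-339419, plus strand), the isoenzyme best known from stationary-phase yeast, was the least abundant. It had 62.5, 132, 218 and 286 normalized counts in WT and 63.5, 288, 313 and 302 in *rrp6Δ*. Replicate 1 was low in both strains, and the libraries of the same number stood higher in *rrp6Δ* in 4 of 4, by 0.023, 1.12, 0.52 and 0.075 on the log2 scale. The log2 fold change was 0.47 ± 0.49 (adjusted p = 0.477) without the block and 0.44 ± 0.18 (adjusted p = 0.060) with it. That change fell short of 1.5-fold with the block and passed only when the scale was also set by ORF-Ts. *TDH1* made up 3.73%, 11.0%, 8.10% and 8.22% of the reads of the 3 *TDH* genes in WT and 4.38%, 16.2%, 13.4% and 13.3% in *rrp6Δ*.

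*PGK1* (chrIII:137706-139154, plus strand) encodes phosphoglycerate kinase, the first ATP-forming step. Its counts were 3022, 1505, 5430 and 4503 in WT and 1833, 1716, 3542 and 3639 in *rrp6Δ*. They were lower in *rrp6Δ* in 3 of 4 numbers (-0.43 ± 0.41, adjusted p = 0.432).

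The enolases form phosphoenolpyruvate. *ENO1* and *ENO2* were identical at 94.8% of 1314 coding positions with a longest shared run of 112 bases, and 10.7% of the 75-base windows of each occurred elsewhere in the genome. The windows below cover coding positions 337 to 366 from RefSeq's R64 sequence and show 8 differing positions in capitals. They lie in the single coding exon of each gene, at chrVII:1001263-1001292 for *ENO1* and chrVIII:451663-451692 for *ENO2*, both on the plus strand.
ENO1: ggtgtTtcTTtggcTgctTcCagagcTgcC
ENO2: ggtgtCtcCAtggcCgctGcTagagcCgcT

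*ENO2* (chrVIII:451297-452760, plus strand), the enolase that glucose induces, was counted at 4009, 1429, 5570 and 3440 in WT and at 2901, 1393, 3457 and 2659 in *rrp6Δ*. The *rrp6Δ* library was lower in 4 of 4 numbers, by 0.04 to 0.69 on the log2 scale (-0.47 ± 0.40, adjusted p = 0.381). *ENO1* (chrVII:1000890-1002388, plus strand) had 311, 266, 684 and 726 in WT and 255, 338, 739 and 597 in *rrp6Δ*. It was higher in 2 numbers and lower in 2 (-0.04 ± 0.40, adjusted p = 0.943), and its sign depended on the scale and on which library was included. *ENO1* contributed 7.20%, 15.7%, 10.9% and 17.4% of the enolase reads in WT and 8.08%, 19.5%, 17.6% and 18.3% in *rrp6Δ*.

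*CDC19* (chrI:71759-73452, plus strand) encodes the pyruvate kinase used during growth on glucose, which makes pyruvate and ATP. It had 8197, 5845, 14544 and 8272 normalized counts in WT and 5181, 4845, 8591 and 5159 in *rrp6Δ*. Replicate 3 was the highest library of both strains, and *rrp6Δ* was the lower strain in 4 of 4 numbers, by 0.66, 0.27, 0.76 and 0.68 on the log2 scale. The log2 fold change of -0.63 ± 0.36 (adjusted p = 0.196) was the lowest of the 10 with all libraries included. It was -0.32 without WT replicate 3, where *TDH3* (-0.55) and *PDC1* (-0.46) were lower, and -0.80 without WT replicate 2, where *TDH3* was at -0.82. Without *rrp6Δ* replicate 4 it was -0.53, where *PDC1* (-0.73), *TDH3* (-0.68) and *PGK1* (-0.58) were lower. Without *rrp6Δ* replicate 1 it was -0.528, where *TDH3* was at -0.548. With the block the log2 fold change of *CDC19* was -0.59 with a 95% interval from -1.06 to -0.12. Relative to the ORF-T median of the same fit, *CDC19* was at -0.31 without the block and at -0.28 with it.

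*PDC1* (chrXII:232313-234111, minus strand) encodes the main pyruvate decarboxylase, which opens the route from pyruvate to ethanol. It was counted at 2570, 1428, 3872 and 5687 in WT and at 2075, 1601, 2355 and 3327 in *rrp6Δ*. Replicate 4 was highest in both strains, and 3 of 4 numbers were lower in *rrp6Δ* (-0.53 ± 0.40, adjusted p = 0.318). Without WT replicate 4 the log2 fold change of *PDC1* was -0.10. *ADH1*, the alcohol dehydrogenase that completes fermentation, lay between 2308 and 4163 in WT and between 1540 and 2401 in *rrp6Δ* and was lower in 4 of 4 numbers (-0.53, adjusted p = 0.170).

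**Figure D2:**
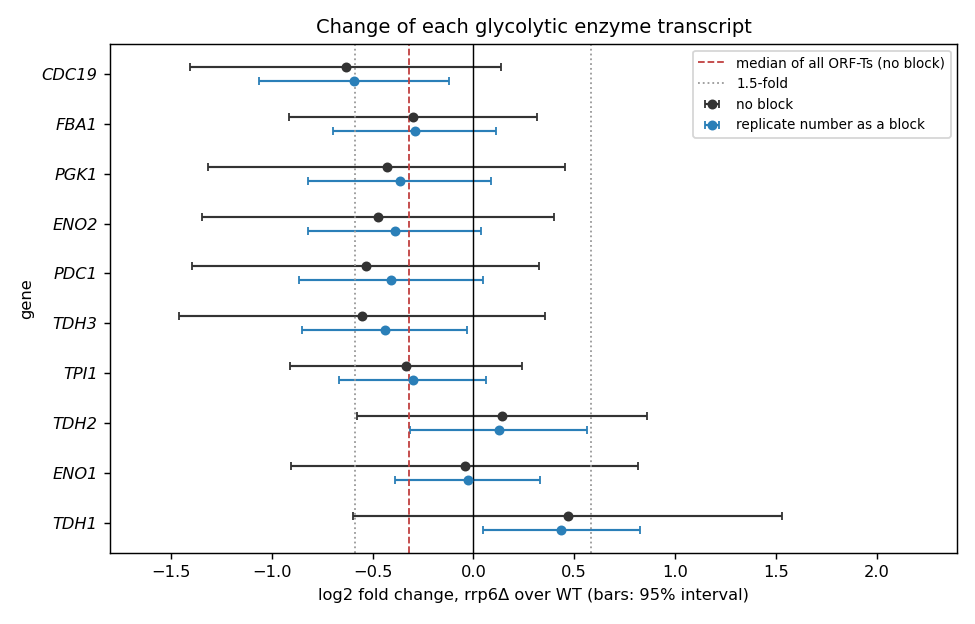
Log2 fold change of each glycolytic transcript, rrp6Δ over WT, with 95% intervals from edgeR's quasi-likelihood fit without a block (black) and with a block for the replicate number (blue), the ORF-T median dashed and 1.5-fold dotted. All 10 black intervals cross 0, and the block narrows them so that those of CDC19, TDH3 and TDH1 exclude 0, of which CDC19 alone passed the thresholds.

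Within a library, the ratio of a pair of isoenzymes does not depend on how the library is scaled. For the *TDH* and *ENO* pairs it can depend on how the mapping placed reads that fit more than 1 copy. Over 6 ratios, each put to an exact permutation test (two-sided, 70 arrangements of 4 libraries against 4), the smallest p was 0.2 and the smallest adjusted p 0.583 (Benjamini-Hochberg over the 6), where the design allows no p below 0.0286. The direction was the same in all 4 replicate numbers for 4 of them. The *TDH* ratios share genes and are not independent, and the p over swaps given below were not adjusted over the 6. The ratio of *TDH1* to *TDH3* counts was 0.0548, 0.243, 0.153 and 0.115 in WT and 0.0638, 0.606, 0.281 and 0.246 in *rrp6Δ*. It was higher in *rrp6Δ* in 4 of 4 numbers, with a mean log2 difference of 0.88 and an SD of the paired differences of 0.47 (exact p = 0.257 over arrangements, 0.125 over the 16 swaps within numbers, which is the smallest that 16 swaps can give). The ratio of *TDH1* to *TDH2* (mean log2 difference 0.31) and of *ENO1* to *ENO2* (0.36) was likewise higher in 4 of 4, and the ratio of *PDC1* to its minor copy *PDC5* was lower in 4 of 4 (-0.44), all with an exact p of 0.125 over the swaps. The range of the *ENO1* to *ENO2* ratio was 0.0776 to 0.211 in WT and 0.0879 to 0.243 in *rrp6Δ*.

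The ratio of *TDH2* to *TDH3* was higher in 3 of 4 numbers (0.57, exact p = 0.457). *CDC19* counts were between 113 and 334 times those of *PYK2*, the minor pyruvate kinase gene, in WT and between 82.6 and 363 times in *rrp6Δ*, with 2 numbers higher and 2 lower (0.04, exact p = 0.971). *PDC1* counts were between 165 and 385 times those of *PDC5* in WT and between 151 and 305 times in *rrp6Δ*. *CDC19* and *PYK2* were identical at 67.6% of aligned positions and *PDC1* and *PDC5* at 87.2%, and none of their 75-base windows occurred elsewhere in the genome.

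**Figure D3:**
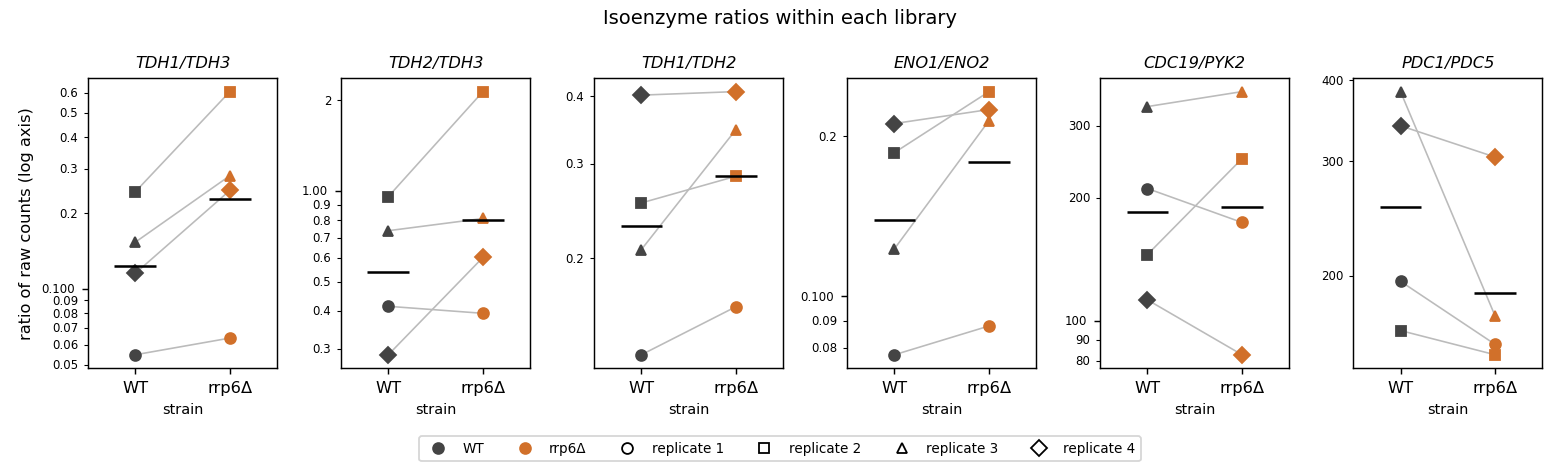
Ratio of the raw counts of each pair of isoenzyme genes in each library, on log axes, with symbol shapes for the replicate numbers, grey lines joining the same number and black bars at the geometric mean of 4. The lines rise from WT to rrp6Δ in all 4 numbers for TDH1/TDH3, TDH1/TDH2 and ENO1/ENO2 and fall in all 4 for PDC1/PDC5, while the 2 strains overlap in every panel.

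The rest of the pathway was read from lists of 39 genes, of which 2 were up-regulated and 5 down-regulated by the same thresholds, beside 2.09% and 14.3% of ORF-Ts. The 14 other genes of glycolysis and fermentation had a median log2 fold change of -0.30, with 1 up-regulated and 13 not past the thresholds. The one was *GPM2*, a homolog of phosphoglycerate mutase counted at only 3.90 to 7.99 in WT and 7.20 to 11.4 in *rrp6Δ* (0.73, adjusted p = 0.071). The main mutase gene *GPM1* lay between 1149 and 2806 in WT and 1244 and 1745 in *rrp6Δ* (-0.39, adjusted p = 0.318). Of the 8 regulators, *TYE7*, which encodes a basic helix-loop-helix activator of glycolytic genes, was up-regulated. Its counts were 5.25, 5.41, 6.96 and 12.8 in WT and 14.8, 19.2, 19.4 and 8.24 in *rrp6Δ*, higher in 3 of 4 numbers (1.03 ± 0.35, adjusted p = 0.044). The other 7 regulators did not pass.

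Falls were found among the genes of gluconeogenesis and the glyoxylate cycle and among those that use pyruvate or acetaldehyde. In the first list 3 of 6 were down-regulated, beside 14.3% of all ORF-Ts, with a list median of -0.78. With ORF-T scaling or with library totals as the scale, 1 of the 6 was down-regulated. *ADH2*, the alcohol dehydrogenase that consumes ethanol, had 84.9, 155, 19.7 and 29.1 normalized counts in WT and 27.4, 28.6, 14.6 and 14.3 in *rrp6Δ* (-1.77 ± 0.54, adjusted p = 0.026). The numbers with high *ADH2* in WT, replicates 1 and 2, carried the larger differences. *MLS1*, malate synthase of the glyoxylate cycle, fell by 1.05 on the log2 scale (adjusted p = 0.077), and *MDH2*, the cytosolic malate dehydrogenase, fell by 0.82 (adjusted p = 0.056). Both were lower in 4 of 4 numbers.

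In the list of pyruvate and acetaldehyde users none was down-regulated with ORF-T scaling or with library totals as the scale. With TMM over all transcripts and no block, 2 of 7 fell, beside 14.3% of all ORF-Ts. These were *ALD6*, an acetaldehyde dehydrogenase (-0.62, adjusted p = 0.096), and *ADH3*, the mitochondrial alcohol dehydrogenase (-0.64, adjusted p = 0.070), and the list median was -0.62. None of the 4 glycerol-branch genes passed (median -0.32), among which *GPP1*, *GPD1* and *GPP2* were the most abundant per kilobase. With the block the number of falls was 9 of 39, through *PYK2*, *FBP1*, *PDA1* and *PYC1*, beside 19.4% of all ORF-Ts. With ORF-T scaling it was 1 (*ADH2*) and 3 genes rose, *GPP2* being the addition, beside 2.66% and 3.81% of ORF-Ts. Leaving out 1 library gave between 1 and 6 falls and between 0 and 3 rises. The falls numbered 2 without WT replicate 1, WT replicate 4 or *rrp6Δ* replicate 1, 1 without *rrp6Δ* replicate 3 and 3 without *rrp6Δ* replicate 4. The rises numbered 0 without WT replicate 1 or *rrp6Δ* replicates 2 or 3, and 1 without WT replicates 2 or 3 or *rrp6Δ* replicate 4.

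**Figure D4:**
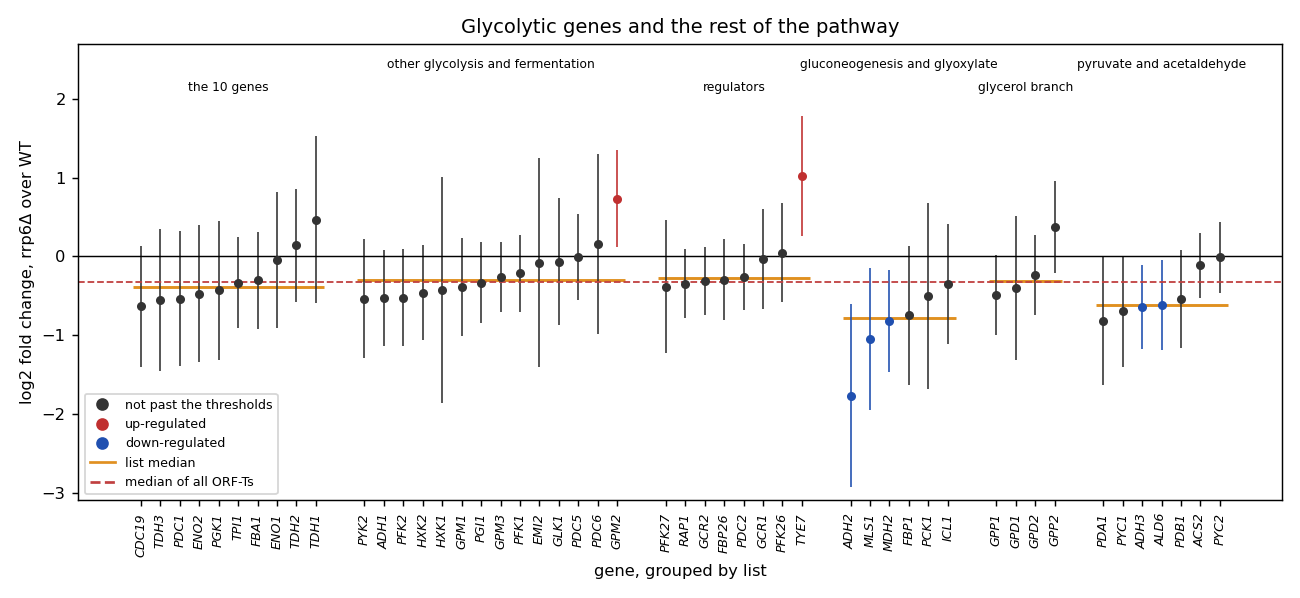
Log2 fold change with 95% interval for the 10 glycolytic transcripts and the 39 other genes of the pathway, grouped by list, with up-regulated genes in red, down-regulated genes in blue, list medians in orange and the ORF-T median dashed. The medians of the 10, of other glycolysis, of the regulators and of the glycerol branch lie between -0.38 and -0.28, and those of gluconeogenesis (-0.78) and of pyruvate and acetaldehyde use (-0.62) lie lower.

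Other annotated transcripts lie over and beside the glycolytic genes. Over the 10 genes and within 300 bases of them lay 26 of them, of which 11 overlapped a gene. Of the 26, 7 were up-regulated and 0 down-regulated without the block, and 9 and 1 with it, beside 25.6% and 9.61% of all transcripts without the block and 28.0% and 13.3% with it. Of 8 CUTs and Nrd1-unterminated transcripts (NUTs), 5 were up-regulated, where 70.7% of the 2023 CUTs and NUTs annotated genome-wide were. None of 3 stable unannotated or Ssu72-restricted transcripts passed. Some of these rows overlap one another on the same strand, as CUT210 and NUT0401 do, so the counts are not of separate transcripts. The up-regulated antisense rows AS_YCR014C and AS_YHR174W were kept by the authors because they had changed in these libraries. The rows outside the genes were picked out after their values were seen.

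At *TDH1*, NUT0401 on the same strand reached 18 bases into the 5' end of the annotation and rose from 1.10, 1.26, 2.96 and 1.43 normalized counts in WT to 2.75, 5.40, 5.21 and 3.64 in *rrp6Δ* (1.35 ± 0.39, adjusted p = 0.021). CUT210 ended 5 bases upstream of *TDH1* on the same strand and had between 2 and 6 reads in the WT libraries and between 23 and 39 in *rrp6Δ* (2.34 ± 0.43, adjusted p = 0.0018). It lies wholly within NUT0401, so its reads can also be counted there and the rises of NUT0401 and CUT210 are not separate. *TDH1* itself did not pass, as given above. CUT209, 141 bases upstream, had an adjusted p of 0.102 and did not pass, but passed with the block (adjusted p = 0.054), with ORF-T scaling (0.062) and with library totals as the scale (0.029). It had only 12 reads in WT and 54 in *rrp6Δ*. CUT209 also overlaps NUT0401 on the same strand, so the CUT209 and NUT0401 rows can share reads.

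At the other genes the picture was mixed. CUT231, on the opposite strand 268 bases upstream of *FBA1*, rose (2.65 ± 0.45, adjusted p = 0.0013), with 29 reads in the 4 WT libraries and 286 in the 4 *rrp6Δ* libraries. CUT497, 9 bases upstream of *TPI1* on its strand, rose (1.34 ± 0.46, adjusted p = 0.046). At the other end of the gene, CUT496, which shared 10 bases with the 3' end of *TPI1* on its strand, did not pass (-0.10, adjusted p = 0.830). CUT628, which shared 14 bases with the 3' end of *TDH3* on its strand, had between 23.6 and 58.1 normalized counts in WT and between 24.6 and 33.7 in *rrp6Δ* (-0.20, adjusted p = 0.609). SRT109, opposite to *TDH3* with 2 shared bases, had at most 1.25 normalized counts in a library (-0.22, adjusted p = 0.734). Downstream of *PGK1* on its strand, AS_YCR014C and NUT0076 were up-regulated from few reads. AS_YCR014C had 6 reads in WT and 45 in *rrp6Δ*, a ratio of 5.06 with a 95% counting interval from 2.15 to 14.5. NUT0076 had 8 and 74, a ratio of 6.24 from 3.01 to 15.0. Most of AS_YCR014C lies within NUT0076 on the same strand, so both rises can rest on the same reads. AS_YCR014C is an antisense annotation, which the authors kept only where it had changed in these libraries, so its rise is not independent evidence.

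Rows that run antisense over most of a gene were analysed for *ENO2* and *PGK1*. The authors first tested the reversed coding region of every ORF-T and kept those with significant changes in *rrp6Δ*. No row antisense to most of a gene was listed for the other 8. Antisense reads over these 8 were not measured here beyond the short overlaps given. The transcript antisense to *ENO2* (AS_YHR174W) rose from 1.02, 2.14, 1.04 and 0.571 normalized counts to 4.82, 5.40, 2.94 and 2.39 (1.69 ± 0.43, adjusted p = 0.011), and its strains did not overlap, as was so for 21.9% of all transcripts in that direction. The authors kept antisense annotations only where they had changed in these libraries, so this rise is not independent evidence. It amounted to between 0.0166% and 0.150% of the *ENO2* count in WT and between 0.0852% and 0.388% in *rrp6Δ*, while *ENO2* stayed below the thresholds. *YCR013C*, an annotated open reading frame opposite to *PGK1* over 1410 bases, had 4.82, 9.18, 3.70 and 0.428 in WT and 12.9, 12.2, 5.81 and 4.31 in *rrp6Δ*, and did not pass (0.94, adjusted p = 0.239). It passed with the block (1.13, adjusted p = 0.0095) and, without the block, with library totals as the scale (1.42, adjusted p = 0.066). Its reads came to at most 0.708% of those of *PGK1*.

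The row AS_YAL037C-B, listed as antisense to a small open reading frame, lay on the strand of *CDC19* over 975 bases of that gene. Its counts were between 60.0% and 67.2% of those of *CDC19* in each library, so it holds reads of *CDC19*, and its log2 fold change of -0.68 (adjusted p = 0.161; -0.63 with the block, adjusted p = 0.022, down-regulated) repeats that of *CDC19*. AS_YAL037C-A, which shares 27 bases with *CDC19* on its strand, had a log2 fold change of -0.48 (adjusted p = 0.172). The convergent or opposite genes *YJR008W* at *TDH2* (116 shared bases, -0.23), *YCR014C* at *PGK1* (77, -0.52) and *YKL061W* at *FBA1* (74, 0.07) did not pass.

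**Figure D5:**
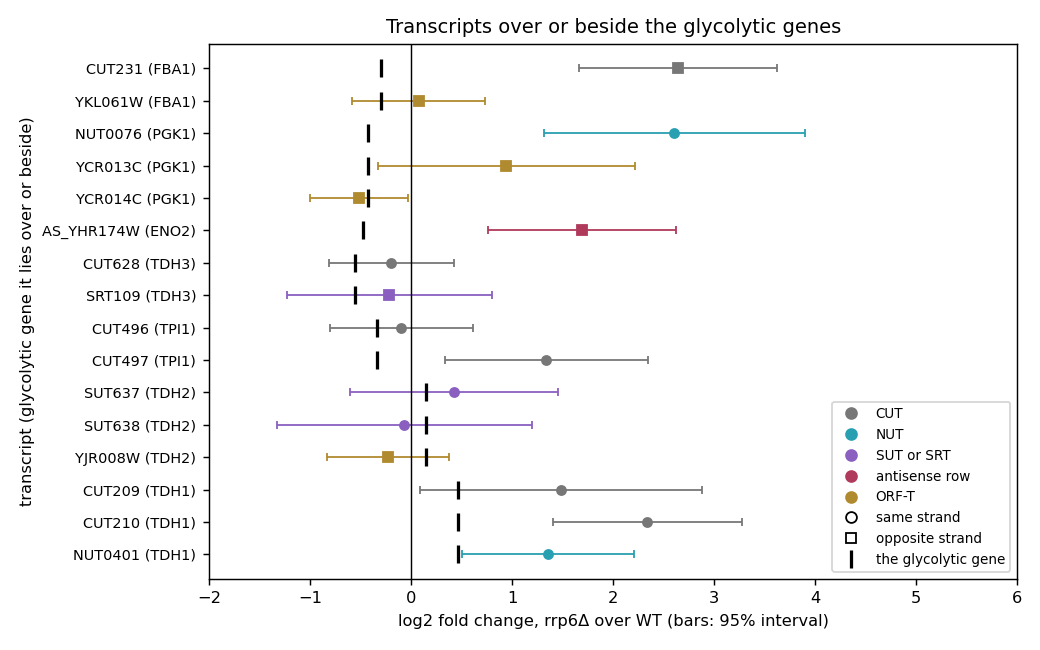
Log2 fold change with 95% interval of the CUTs, NUTs, SUTs and SRTs within 300 bases of a glycolytic gene and of the rows opposite to one, by class (colour) and strand (circle, same strand; square, opposite), with a black bar at the log2 fold change of the glycolytic gene named in parentheses. The 5 up-regulated CUTs and NUTs within 300 bases and the antisense row of ENO2 lie above 1 with intervals clear of 0, as does CUT209, which did not pass in this fit, while every black bar lies between -0.55 and 0.47.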

How the data were processed

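Counts came from RNA-Seq of 4 WT and 4 *rrp6Δ* libraries, grouped and numbered by the sample labels. The authors removed rRNA and sequenced strand-specific 75-base SOLiD reads, which bfast aligned to sacCer3 and bamutils assigned to annotated transcripts. Of their mappings, with and without rRNA and tRNA reads, the one behind the table is not named. The deposited raw read counts were whole numbers without normalization and were the values analysed. Also deposited were the authors' normalized signal per library and the log2 fold change, p-value and FDR of their own edgeR comparison, and none of these was used. Annotations overlap, so a read can be counted more than once. Total counts per library lay between 6904004 and 12666126, and each glycolytic transcript had between 739 and 113772 reads in a library, so counting error was small beside the spread between replicates. The study calls the libraries of a strain biological replicates, and the labels do not say at which step they were separated, so p-values measure the spread between these libraries. In bulk RNA, a lower level per cell and fewer cells expressing a gene cannot be told apart.

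Counts were scaled with TMM over all transcripts (factors 0.735 to 1.37) and compared in R 4.3.3 with edgeR 4.0.16 (glmQLFit, glmQLFTest, no covariate, no filter), with Benjamini-Hochberg adjustment over 10054 transcripts. Standard errors were taken from the F statistic (the absolute log2 fold change over its square root), and 95% intervals used the fit's degrees of freedom. Ratios of counts were tested by exact permutation in Python 3.11.15 with scipy 1.17.1. Sequence windows and identities came from the R64 assembly of RefSeq, in which all 10 coding sequences lie within their ORF-Ts and 952 of 958 antisense rows have the coordinates of their gene. The genes named were the 10, listed genes past the thresholds (or up to 3 of the most abundant), both genes of each ratio, rows overlapping a member, and *RRP6*. Rows that lie beside a gene without overlap, *HXK1* and *EMI2* are outside this rule and were picked with their values in view. The members and gene lists were chosen with earlier results of these data known.

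Replicate numbers were taken to pair the libraries because deviations from the strain means correlated between same-numbered libraries (0.330 to 0.520) and not between others (-0.350 to 0.012). Libraries of a strain differed by far more than counting error (mean chi-square per transcript of 52.7 or more), so none was a duplicate. Tested on simulated counts for this comparison with 200 of 10054 transcripts changed, the fit without the block called 94 of 98 changes of log2 size 2 and 38 of 102 of size 1, none in the wrong direction, and 12 unchanged transcripts. The alternatives were edgeR's exact test, DESeq2 1.42.0, 2 count filters, 3 other scalings, an FDR of 0.05, the block with and without ORF-T scaling, and each library left out, 18 in all. 95% counting intervals of ratios cover counting error only.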

Additional observations from a re-analysis of the deposited data

Results flagged for a closer look

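In 164 groups of 4 libraries checked for 1 value far from the other 3, 12 were found, where chance gives about 5% of groups. Among the glycolytic genes, the *TDH1* normalized count of *rrp6Δ* replicate 1 was 63.5 with the other *rrp6Δ* libraries between 288 and 313, and WT replicate 1 was as low. The *CDC19* count of *rrp6Δ* replicate 3 was 8591 with the others between 4845 and 5181, and AS_YAL037C-B, which holds *CDC19* reads, was 5496 there with the others between 3094 and 3314. The *PDC1* to *PDC5* ratio was 305 in *rrp6Δ* replicate 4 and between 151 and 173 in the others.

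Replicate 4 of both strains stood apart for the glucose-phosphorylating enzyme genes *HXK1* and *EMI2*. *HXK1* was at 1476 in WT with the others between 199 and 364, and at 987 in *rrp6Δ* with the others between 175 and 277. *EMI2* was at 404 in WT with the others between 85.0 and 110, and at 414 in *rrp6Δ* with the others between 76.0 and 96.8. *PYK2* was at 73.5 in WT replicate 4 with the others between 38.9 and 43.5.

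Beside the glycolytic genes, CUT628 at *TDH3* was at 58.1 in WT replicate 4 with the others between 23.6 and 28.0, and *TDH3* itself was highest in that library. AS_YCR014C was at 0.444 in WT replicate 3 with the others between 0.0846 and 0.143, a difference of a few reads. *YKL061W*, opposite to *FBA1*, was at 2.28 in WT replicate 1 with the others between 3.85 and 4.14.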

How the results depend on the processing

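Of the 18 alternatives, 17 left the number of glycolytic transcripts up-regulated at 0 and 17 left the number down-regulated at 0. The exceptions were the replicate block, with 1 down-regulated, and the block with ORF-T scaling, with 1 up-regulated, and the block changed no other glycolytic call. These exceptions were also the only ones of the 18 that used the pairing of the libraries. Libraries were left out only of the fit without the block. An FDR of 0.05 reused that fit and could add no call, so the tally of 17 is a weak check. Scaling by ORF-Ts moved the ORF-T median from -0.32 to -0.02 and library totals moved it to 0.04, and the median of the 10 moved with it, to -0.08 and -0.05. The log2 fold change of *ENO1* changed sign to 0.17 with at least 10 counts in every library, 0.26 with ORF-T scaling, 0.27 with library totals, 0.083 with TMM without sn/snoRNAs, extended transcripts and NUTs, and 0.28 with the block and ORF-T scaling, and it lay between -0.33 and 0.26 when 1 library was left out. *FBA1* changed to 0.051 and *TPI1* to 0.016 with library totals, and to 0.015 and 0.0054 with the block and ORF-T scaling. With 1 library left out, *TDH2* lay between -0.024 and 0.42, and the *CDC19* to *PYK2* ratio between -0.27 and 0.45. The other ratio differences kept their sign, between 0.41 and 1.49 for *TDH1* to *TDH3*, 0.099 and 0.91 for *TDH2* to *TDH3*, 0.040 and 0.58 for *TDH1* to *TDH2*, 0.082 and 0.70 for *ENO1* to *ENO2*, and -0.67 and -0.24 for *PDC1* to *PDC5*. The replicate block tests of the 6 ratios gave exact p between 0.125 and 0.875.

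Of the other pathway genes, an FDR of 0.05 left 1 rise and 1 fall. Falls numbered 0 with at least 10 counts in every library, 1 with ORF-T scaling, with library totals or with TMM without sn/snoRNAs, extended transcripts and NUTs, 9 with the block and 2 with the block and ORF-T scaling. With 1 library left out there were 0 to 3 rises and 1 to 6 falls. The cause of these differences was not tested. With 4 libraries per strain and a common biological coefficient of variation of 0.302, log2 changes near 1 were often missed in simulation. The simulated transcripts were drawn without regard to class, and same-numbered libraries shared no effect. The rate was therefore not measured for the glycolytic genes, nor for the block with paired libraries.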
